A study of Mus musculus with 30 samples.

Results

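At imprinted genes, 1 parental allele is expressed and the other is silent. The chromatin at 7 such loci, which hold the 9 genes H19, Igf2, Kcnq1ot1, Dlk1, Meg3, Grb10, Peg3, Mest and Gnas, was described from the peak lists of 8 ChIP-seq libraries. Members were all regions of these lists that touched 1 of 7 windows of the mouse build mm9, and no measured value was used to choose them. The windows were chr7:149710000-149900000 for H19-Igf2, chr7:150350000-150530000 for Kcnq1ot1, chr12:110640000-110860000 for Dlk1-Meg3, chr11:11780000-11990000 for Grb10, chr7:6600000-6740000 for Peg3, chr6:30640000-30750000 for Mest and chr2:174060000-174220000 for Gnas. Together they spanned 1210 kb and held 360 of the 624912 regions of the 8 lists.

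The series held 30 mouse samples, of which 22 were not analysed here. Cohesin was mapped in NIH3T3, an immortalized line of mouse embryonic fibroblasts, with antibodies against its subunits SMC1, RAD21 and SMC3. One NIH3T3 line stably carried a CpG-free control plasmid that expresses beta-galactosidase, called the empty vector, and the other stably expressed BORIS from a CpG-free plasmid. The BORIS cells were 1 clone, clone 2, so BORIS and anything else particular to that clone cannot be told apart. Snf2h was mapped in CH12, a B lymphoma line of the mouse, without any vector. The wild-type CH12 cells were set beside mutant ones in which Cas9 editing had deleted zinc fingers 9 to 11 from both copies of CTCF. The CH12 and NIH3T3 cells differ in lineage, antibody and protein, so no difference between them was read as one of genotype. Each of the 8 groups had 1 library, so no comparison has a replicate check, no test was made, and intervals are 95% Poisson or Clopper-Pearson limits for counting error only. Peak lists carry no expression values, so neither the cell types nor BORIS itself could be checked against markers.

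At an imprinted locus, DNA methylation inherited from 1 parent marks a control region, and the mark decides which allele is transcribed. CTCF binds several control regions only where they are unmethylated. The best known lies between Igf2 and H19, where CTCF on the maternal allele keeps Igf2 from its enhancers. Cohesin, a ring complex, extrudes chromatin loops and halts at CTCF. BORIS (CTCFL), normally a protein of the male germ line, shares the zinc fingers of CTCF and binds many of the same sites. Snf2h is the motor of ISWI remodellers, which space nucleosomes and aid CTCF binding. None of the lists separates the alleles, so a region may lie on either allele or on both.

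The sequences of the regions themselves are not printed, because the genome used here was not of the build of the lists. CpG methylation is what marks these loci, so 3 promoters are shown with every CpG in capitals: Meg3 for the locus with the most cohesin regions, Kcnq1ot1 for a locus with no region called in all 6 cohesin lists, and Peg3 for a locus whose summed cohesin pileups were nearly equal in both lines. They run from 250 bases before to 50 bases after the start of transcription, 5′ to 3′, and come from RefSeq on GRCm38.p6, at chr12:109540746-109541045 on the plus strand, chr7:143296498-143296797 on the minus strand and chr7:6730370-6730669 on the minus strand.
Meg3: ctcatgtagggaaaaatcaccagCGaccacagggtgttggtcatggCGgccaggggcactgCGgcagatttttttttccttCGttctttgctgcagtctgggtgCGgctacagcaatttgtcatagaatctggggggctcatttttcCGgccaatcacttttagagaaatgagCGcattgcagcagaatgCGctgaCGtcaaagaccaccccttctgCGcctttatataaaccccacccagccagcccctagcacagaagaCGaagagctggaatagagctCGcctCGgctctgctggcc
Kcnq1ot1: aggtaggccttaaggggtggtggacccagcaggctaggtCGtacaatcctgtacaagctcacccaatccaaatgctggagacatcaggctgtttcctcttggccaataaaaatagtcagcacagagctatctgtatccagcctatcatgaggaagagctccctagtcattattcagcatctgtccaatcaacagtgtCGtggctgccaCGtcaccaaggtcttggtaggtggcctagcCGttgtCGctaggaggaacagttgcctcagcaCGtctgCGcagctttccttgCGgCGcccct
Peg3: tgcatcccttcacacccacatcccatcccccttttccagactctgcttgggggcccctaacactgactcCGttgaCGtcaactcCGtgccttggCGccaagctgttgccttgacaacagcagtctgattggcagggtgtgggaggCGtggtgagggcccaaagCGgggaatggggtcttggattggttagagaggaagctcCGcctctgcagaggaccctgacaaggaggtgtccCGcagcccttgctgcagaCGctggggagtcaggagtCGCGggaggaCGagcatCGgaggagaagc
The Meg3 promoter held 13 CpG, the Kcnq1ot1 promoter 9 and the Peg3 promoter 13, and the median over 32841 mouse promoters of this length was 7. Of the 9 genes, 8 were matched to 18 promoter entries, and H19 was not among them. The CpG counts of the 18 entries ran from 1, at a second Meg3 start, to 45, at a Grb10 start, and the Gnas entries held 16, 27, 28 and 40. These counts describe the reference only. No cohesin or Snf2h region was placed on a promoter, since the builds differ.

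The 8 whole lists held between 17304 and 107735 regions. Depth was read from the lowest background rate of each list over its narrowest region, a stand-in of 7.43 to 8.79 fragments per kb in the cohesin lists, 20.6 in wild-type Snf2h and 13.8 in mutant Snf2h. For each region the lists give a fold, the pileup of fragments at the summit over a local background, and a −log10 p. Both are the authors' own values. The percentile of a region is its rank by −log10 p within its own list.

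The loci held more cohesin regions in empty-vector cells than in BORIS cells. In empty-vector cells 69 SMC1, 56 RAD21 and 76 SMC3 regions fell in the 7 windows. In BORIS cells 49 SMC1, 44 RAD21 and 52 SMC3 regions did. The empty-vector count was the larger with each antibody. Summed over the antibodies the loci held 201 regions in empty-vector and 145 in BORIS cells, a ratio of 0.721, while the whole lists held 291561 and 292177, a ratio of 1.00. With a −log10 q of at least 10 the loci held 99 and 81, a ratio of 0.818 (0.602 to 1.11), and the whole lists had a ratio of 0.941. This interval, unlike that of the ratio over all regions (0.579 to 0.898), included both 1 and the value of the whole lists. The intervals treat the 3 antibodies as separate counts, although they often mark the same sites, and are therefore too narrow. The density of empty-vector regions per 100 kb was 5.70 for SMC1 (4.44 to 7.22), 4.63 for RAD21 (3.50 to 6.01) and 6.28 for SMC3 (4.95 to 7.86). The whole empty-vector lists had 4.03, 3.20 and 3.81 regions per 100 kb, all below these intervals. Dlk1-Meg3 alone held 28, 20 and 29 of the SMC1, RAD21 and SMC3 regions, so this excess is not a trait of all 7 loci. Outside Dlk1-Meg3 only Gnas had an interval above the whole list, with SMC1 (8.75, 4.78 to 14.7) and SMC3 (9.38, 5.25 to 15.5). In BORIS cells the densities at the loci were 4.05, 3.64 and 4.30, and those of the whole lists, 3.87, 3.11 and 4.08, lay within their intervals.

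Most of the difference in counts came from the Dlk1-Meg3 locus. It held 77 of the 201 empty-vector regions and 35 of the 145 BORIS regions, a ratio of 0.455, against 0.899 for regions within 5 Mb and 0.850 for the whole of chromosome 12. Gnas had 38 and 26 regions (0.684), though with RAD21 alone it had 9 in empty-vector and 11 in BORIS cells, against 14 and 8 with SMC1 and 15 and 7 with SMC3. Mest had 8 and 3 (0.375) and H19-Igf2 24 and 19 (0.792). Grb10 had nearly equal counts, 32 and 31 (0.969). At 2 loci the BORIS cells had more regions, Peg3 with 16 and 21 (1.31) and Kcnq1ot1 with 6 and 10 (1.67). The excess at Kcnq1ot1 was in SMC1 alone, with 1 and 5 regions, where RAD21 had 2 and 2 and SMC3 had 3 and 3. The higher counts at both loci were not seen with a −log10 q of at least 10, where Peg3 had 14 and 14 regions, Kcnq1ot1 0 and 0, and Grb10 17 and 21. The direction thus varied with the locus, the antibody and the threshold, and the counts at Mest and Kcnq1ot1 were small. The lists hold no measure of the copy number of these windows in either line, and its part in the counts, folds and pileups was not tested.

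**Figure D1:**
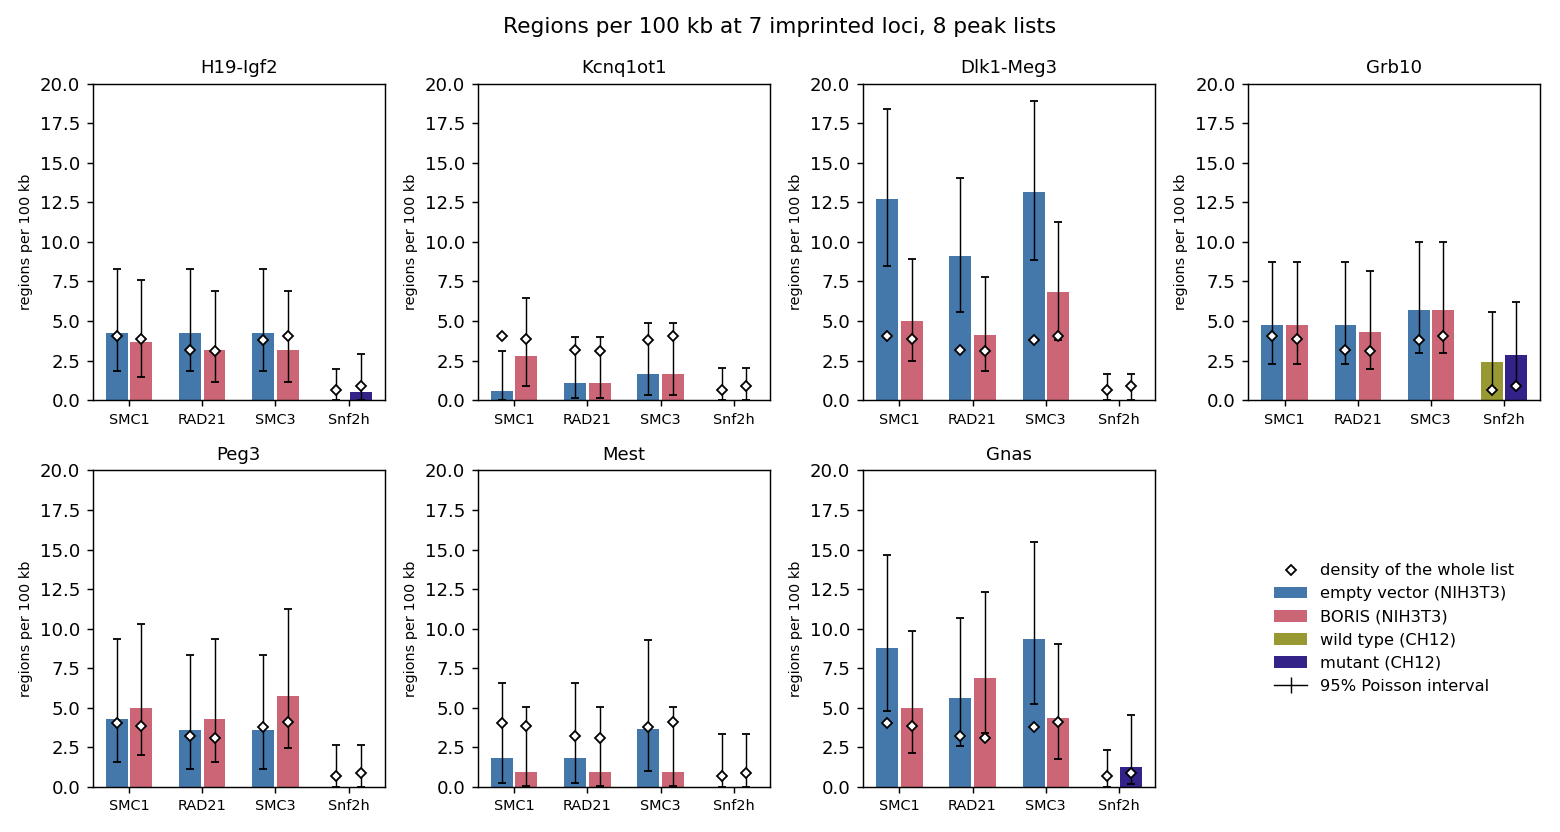
Regions per 100 kb (vertical axis) at each locus for the 8 lists, with bars for the lists, vertical lines for 95% Poisson intervals and open diamonds for the density of the whole list. At Dlk1-Meg3 the empty-vector bars reach 12.7, 9.09 and 13.2 and the BORIS bars 5.00, 4.09 and 6.82, and the 2 highest Snf2h bars, 2.38 and 2.86, are those of Grb10.

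The share of empty-vector regions of the loci matched in BORIS cells was below that of the whole list with each antibody, beyond its interval with 2 of the 3. The share of BORIS regions matched was above that of the whole list with each antibody, but every interval included the whole-list value. With SMC1, 56.5% of the 69 empty-vector regions overlapped a BORIS region by at least 1 bp (44.0 to 68.4), against 73.2% over the whole list. With RAD21 it was 67.9% of 56 (54.0 to 79.7), against 75.7%. With SMC3 it was 57.9% of 76 (46.0 to 69.1), against 78.6%. The SMC1 and SMC3 intervals lay below the whole-list shares, and that of RAD21 included it. Most of this gap came from Dlk1-Meg3, where 31 of 77 empty-vector regions were matched over the 3 antibodies (40.3%), while the other 6 loci had 90 of 124 (72.6%), near the whole-list 75.8%. In the other direction, 79.6% of the 49 BORIS SMC1 regions overlapped an empty-vector region (65.7 to 89.8), against 77.5% over the whole list. For BORIS RAD21 it was 86.4% of 44 (72.6 to 94.8), against 78.2%, and for BORIS SMC3 84.6% of 52 (71.9 to 93.1), against 73.1%. The interval of each antibody alone included its whole-list value. Over the 3 antibodies together 83.4% of the BORIS regions were matched (76.4 to 89.1), against 76.1% over the whole lists, and without Dlk1-Meg3 it was 88 of 110 (80%). A site called with several antibodies counts more than once in these pooled shares, so their intervals are too narrow. With a −log10 q of at least 10 the shares over the 3 antibodies were 73.7% of empty-vector (63.9 to 82.1) and 91.4% of BORIS regions (83.0 to 96.5) of the loci, where the whole lists cut the same way had 76.3% and 81.2%.

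At Dlk1-Meg3 the shares in the 2 directions stood furthest apart. Of its 77 empty-vector regions 31 (40.3%) overlapped a BORIS region of the same antibody, while 33 of its 35 BORIS regions (94.3%) overlapped an empty-vector one. Peg3 and Kcnq1ot1 showed the opposite order. At Peg3 15 of 16 empty-vector regions (93.8%) and 15 of 21 BORIS regions (71.4%) were overlapped, and at Kcnq1ot1 5 of 6 (83.3%) and 5 of 10 (50%). Within a line, each region was also set against the lists of the other antibodies. At the loci 77.4% of these checks found an overlap in empty-vector cells (78.8% over the whole lists) and 77.9% in BORIS cells (78.0%). At Kcnq1ot1 in empty-vector cells 0 of 12 did.

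Joining regions of the 6 cohesin lists that overlapped or touched gave 95 merged regions at the loci, of 150690 in all. Of these, 29 were called in all 6 lists (30.5%, 21.5 to 40.8), close to 34.5% of all merged regions. Another 25 of the 95 were called in 1 list only, where 25.3% of all merged regions were. Called with all 3 antibodies in empty-vector cells and with none in BORIS cells were 6 (6.32%, 2.35 to 13.2), against 1.61% over the genome. The reverse class, with all 3 antibodies in BORIS cells and none in empty-vector cells, had 0 members at the loci (3.16% is the limit of 3 counts that a count of 0 of 95 allows) and held 2.41% of all merged regions. The count of 6 was 10 without the SMC1 lists, 13 without the RAD21 lists, 3 with no BORIS region within 1 kb and 2 with a −log10 q of at least 10. The count of 0 was 1 without the lists of any 1 antibody, and 1 with a −log10 q of at least 10. The shares over all merged regions were not taken under these other rules, so these counts cannot be read against the genome. Counting any antibody, 33 merged regions were seen in empty-vector cells only and 9 in BORIS cells only, where all merged regions gave 27982 and 28389. The 6 empty-vector-only regions were 3 at Dlk1-Meg3 and 1 each at H19-Igf2, Mest and Gnas.

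H19-Igf2 was the locus with the greatest share of regions called everywhere, 6 of 9 merged regions (66.7%, 29.9 to 92.5). This interval included the 34.5% of all merged regions. H19 is a maternally expressed noncoding RNA and Igf2 a paternally expressed fetal growth factor. The strongest region, chr7:149857827-149858498, had folds of 45.5 with SMC1, 49.8 with RAD21 and 53.3 with SMC3 in empty-vector cells. In BORIS cells its folds were 22.0, 26.6 and 33.2. Every BORIS fold was below every empty-vector fold, and yet the region stayed high in each list, at percentiles of 88.4 to 94.9 in BORIS cells and 94.4 to 97.8 in empty-vector cells. A second region 2.98 kb away, chr7:149861481-149861986, had 23.3, 45.1 and 30.1 in empty-vector cells and 8.94, 20.9 and 15.0 in BORIS cells. Another, chr7:149723773-149724245, lay at the other end of the window with 25.9, 30.3 and 33.8 against 16.7, 9.92 and 18.6. In both, the BORIS folds were again all lower than the lowest empty-vector fold. Lower folds in BORIS cells were common over all regions called in 6 lists. Their median ratio of BORIS to empty-vector fold was 0.770 with SMC1, 0.794 with RAD21 and 0.836 with SMC3. At these 3 regions of H19-Igf2 the ratios ran from 0.327 to 0.647.

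Between the ends of the H19-Igf2 window lay the widest merged region, chr7:149796452-149797126 (675 bp), with folds of 21.5, 40.3 and 32.1 in empty-vector cells and 10.9, 11.4 and 10.1 in BORIS cells. Its summit pileups were 48, 85 and 74 fragments against 25, 24 and 22. It stood alone, with 60.3 kb free of any region of the 8 lists before it and 60.7 kb to the next region called in all 6 lists. The remaining 2 regions called everywhere were added after their values were seen, to complete the locus. One of them, chr7:149718744-149719252, had folds of 20.8, 10.2 and 30.7 against 6.79, 3.93 and 11.1, lower in BORIS cells with each antibody. The weakest of the 6, chr7:149735878-149736185, had 5.13, 6.33 and 6.83 against 4.58, 7.57 and 6.91, and it alone did not follow the rest.

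The empty-vector-only region of the locus, chr7:149857056-149857272, sat next to the strongest region and had folds of 11.0, 12.5 and 16.6, at percentiles of 66.2, 63.5 and 74.8. It was the strongest of the 6 empty-vector-only regions by fold. Summed over the 6 regions called in all lists, the summit pileups were 397 fragments with SMC1, 455 with RAD21 and 522 with SMC3 in empty-vector cells. The sums in BORIS cells were 187, 197 and 247. The ratios, 0.471 (0.394 to 0.562), 0.433 (0.364 to 0.513) and 0.473 (0.405 to 0.552), lay below those of all regions called in 6 lists, which were 0.767, 0.764 and 0.805.

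**Figure D2:**
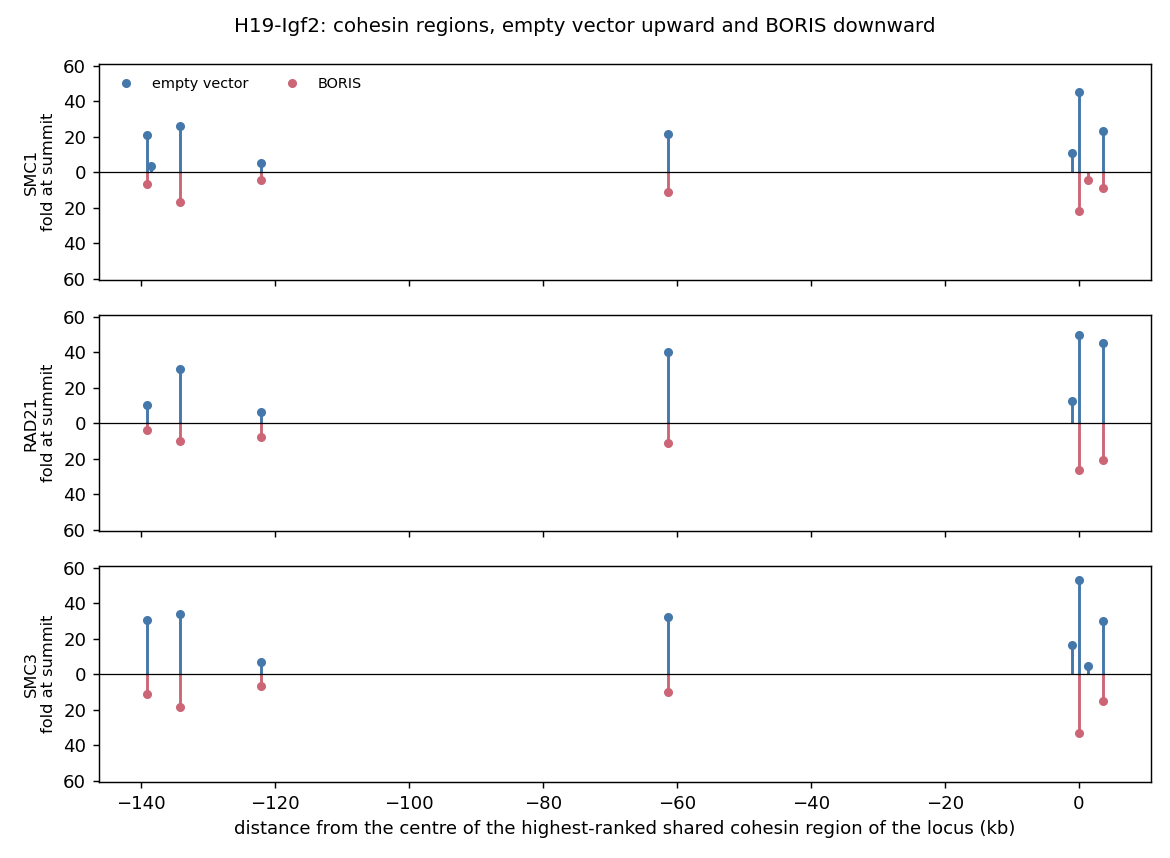
Cohesin regions of the H19-Igf2 window, with 1 panel per antibody: the vertical axis is the fold at the summit, drawn upward for empty-vector and downward for BORIS cells, and the horizontal axis is the distance in kb from the centre of the region with the highest rank. The same 6 positions carry stems in both directions in all panels, and at the highest-ranked region the stems reach 45.5, 49.8 and 53.3 upward and 22.0, 26.6 and 33.2 downward.

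Dlk1-Meg3 held the most regions of any locus. Dlk1 is a paternally expressed transmembrane protein related to Notch ligands, and Meg3 is a maternally expressed noncoding RNA. In empty-vector cells there were 28 SMC1 regions (12.7 per 100 kb, 8.46 to 18.4), 20 RAD21 regions (9.09, 5.55 to 14.0) and 29 SMC3 regions (13.2, 8.83 to 18.9). In BORIS cells there were 11 (5.00, 2.50 to 8.95), 9 (4.09, 1.87 to 7.77) and 15 (6.82, 3.82 to 11.2). With each antibody the intervals of the 2 lines overlapped at their ends. The empty-vector intervals lay above the density of the whole list, and the BORIS intervals included it. With a −log10 q of at least 10 the ratio of BORIS to empty-vector regions at this locus was 0.594 (0.318 to 1.08), against 0.818 within 5 Mb and 0.797 on chromosome 12, and its interval included these values and 1. Without that threshold it was 0.455 (0.296 to 0.686).

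Of the 36 merged regions at Dlk1-Meg3, 7 were called in all 6 lists, 21 in empty-vector cells only and 1 in BORIS cells only. The 21 were weak, with folds between 3.51 and 8.40. The 3 among them seen with all antibodies were chr12:110679667-110679981 (7.49, 4.67 and 4.40 with SMC1, RAD21 and SMC3), chr12:110780304-110780505 (4.39, 6.27 and 3.63) and chr12:110852841-110853075 (5.53, 5.24 and 7.39). One further region with SMC1 alone, chr12:110639975-110640158, only straddled the edge of the window and was chosen for mention after it was seen.

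The strongest region of the locus, chr12:110675920-110676343, had folds of 40.2, 44.4 and 50.6 in empty-vector cells and 18.9, 21.9 and 24.6 in BORIS cells. Its neighbour 1.02 kb away, chr12:110674400-110674894, had 12.9, 23.9 and 20.6 against 9.34, 12.3 and 9.80. The widest region, chr12:110655472-110656664 (1193 bp), had 15.8, 9.58 and 9.52 against 8.47, 7.78 and 7.68. All 3 had lower folds in BORIS cells with each antibody, as was common over all regions called in 6 lists. At the widest region the ratios of BORIS to empty-vector fold were 0.535, 0.812 and 0.807. The medians over all regions called in 6 lists were 0.770, 0.794 and 0.836. Beyond these 3 regions came 105 kb with no region called everywhere, including 65.2 kb with no region of any list, and then the other 4. Of these 4, chr12:110781034-110781473, chosen after its values were seen, was the only one of the 7 that ranked higher in BORIS cells with each antibody, with folds of 7.67, 11.6 and 8.76 against 9.66, 9.80 and 9.15. Summed summit pileups over the 7 regions were 346, 381 and 416 fragments in empty-vector and 186, 211 and 211 in BORIS cells. Their ratios were 0.538 (0.447 to 0.644), 0.554 (0.466 to 0.657) and 0.507 (0.428 to 0.600), again below those of all regions called in 6 lists.

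**Figure D3:**
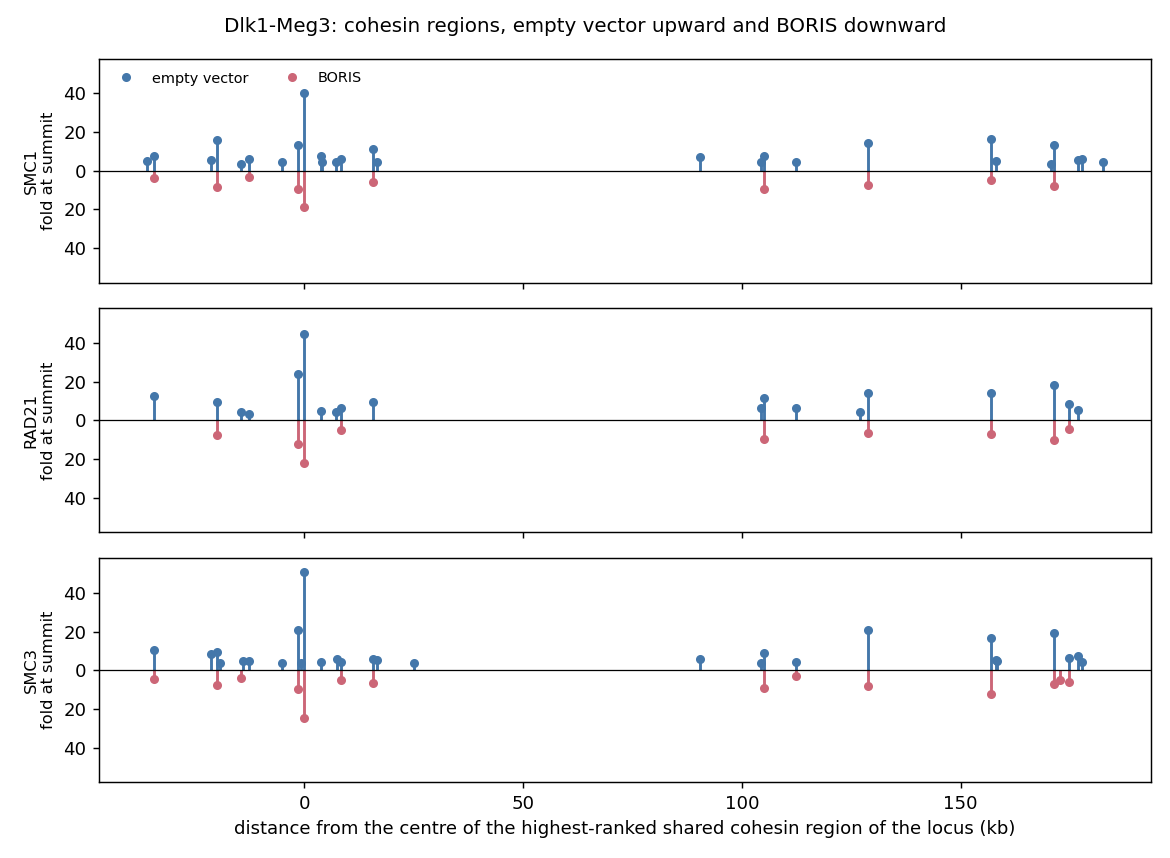
Cohesin regions of the Dlk1-Meg3 window, with 1 panel per antibody: fold at the summit (vertical axis, upward for empty-vector and downward for BORIS cells) against the distance in kb from the centre of the region with the highest rank. At the highest-ranked region the stems reach 40.2, 44.4 and 50.6 upward and 18.9, 21.9 and 24.6 downward, and upward stems without a downward partner are short, none above 12.6.

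Peg3 encodes a paternally expressed zinc finger protein. Its window had 10 merged regions, 5 of them in all 6 lists, and 4 called in BORIS cells only, each with 1 or 2 antibodies and folds of 3.69 to 4.63. The region chr7:6682758-6683335 had folds of 10.8, 11.7 and 9.81 in empty-vector cells and 21.6, 19.5 and 25.9 in BORIS cells. Its summit pileups were 42, 38 and 39 fragments against 75, 69 and 89. Every BORIS value exceeded every empty-vector value. The neighbouring region 489 bp away, chr7:6681751-6682268, chosen after its values were seen, had 5.63, 12.5 and 12.7 against 9.02, 17.0 and 18.3. By contrast, chr7:6612318-6612718 near the start of the window, also chosen after its values were seen, had 9.15, 27.7 and 11.6 against 5.47, 15.3 and 8.17, and its percentile in BORIS minus empty-vector cells was -21.1, -4.58 and -6.12 points. The 5 regions of Peg3 called in all 6 lists thus differed in direction among themselves.

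The third region of this Peg3 cluster had lower folds in BORIS cells. It was the widest of the locus, chr7:6679579-6680652 (1074 bp), and had folds of 33.9, 22.5 and 34.7 in empty-vector cells and 19.9, 16.8 and 24.2 in BORIS cells. The median ratio of BORIS to empty-vector fold over all regions called in 6 lists was 0.770, 0.794 and 0.836, so lower folds in BORIS cells were common. By rank this region differed by only -1.89, -1.56 and -1.34 points in percentile, while chr7:6682758-6683335 ranked higher in BORIS cells by 19.3, 18.7 and 24.3. An isolated region 37.6 kb off, chr7:6641408-6641976, had 25.5, 20.4 and 33.4 against 20.9, 19.4 and 31.0, and ranked 2.17, 3.22 and 3.69 points higher in BORIS cells. Summed pileups over the 5 regions were 253, 251 and 320 fragments against 242, 233 and 322. The ratios were 0.957 (0.799 to 1.15), 0.928 (0.773 to 1.11) and 1.01 (0.859 to 1.18), and all 3 intervals lay above the ratio of all regions called in 6 lists.

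**Figure D4:**
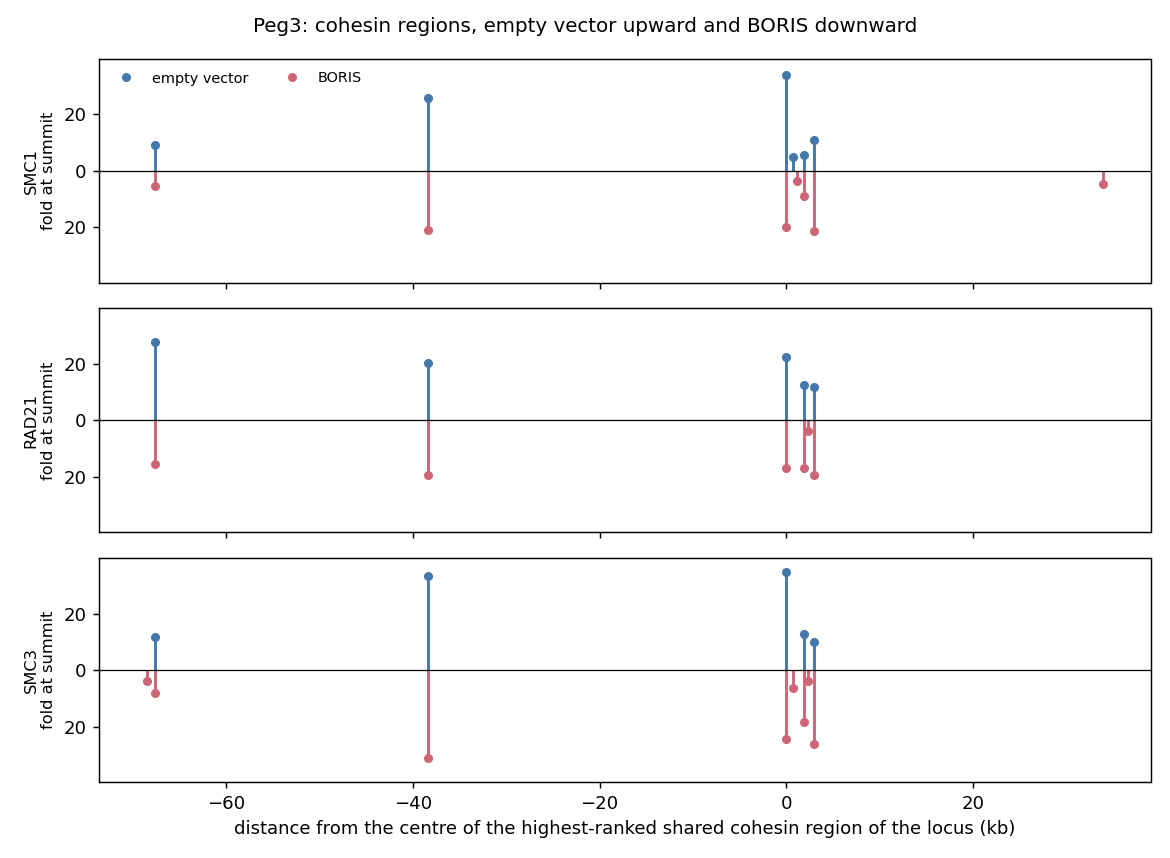
Cohesin regions of the Peg3 window, with 1 panel per antibody: fold at the summit (vertical axis, upward for empty-vector and downward for BORIS cells) against the distance in kb from the centre of the region with the highest rank. Within 4 kb to the right of the centre, the downward stems reach 21.6, 19.5 and 25.9 where the upward ones reach 10.8, 11.7 and 9.81, while at the centre the upward stems are the longer.

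Grb10, an adaptor that restrains insulin and growth factor signalling, is expressed from the maternal allele in most tissues and from the paternal allele in neurons. Of its 16 merged cohesin regions 7 were called in all 6 lists, and none was called in 1 line only with all 3 antibodies. The strongest, chr11:11873167-11873861, had folds of 45.9, 54.1 and 43.2 in empty-vector cells and 40.3, 45.5 and 48.4 in BORIS cells. Its percentiles were 97.3 to 97.8 and 98.1 to 99.6, near the top of each list. The neighbour 1.04 kb away, chr11:11874902-11875366, had 20.6, 35.2 and 21.3 against 13.6, 25.0 and 15.5. A further one, chr11:11939266-11939490, had 15.2, 15.3 and 13.6 against 9.24, 9.34 and 13.7. The widest, chr11:11937090-11938010 (921 bp), had 6.19, 8.42 and 6.20 against 6.52, 10.5 and 6.75, so the regions of this locus did not differ in 1 direction. Summed pileups were 306, 343 and 324 fragments against 290, 291 and 317, ratios of 0.948 (0.804 to 1.12), 0.848 (0.723 to 0.995) and 0.978 (0.835 to 1.15). All 3 exceeded the ratio of all regions called in 6 lists, though the RAD21 interval included it. One region of Grb10 outside the 7, chr11:11808319-11808621, chosen after its values were seen, was missing from the empty-vector RAD21 list and had SMC1 and SMC3 folds of 5.11 and 5.94 there, against 9.69, 10.4 and 14.6 with SMC1, RAD21 and SMC3 in BORIS cells.

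Gnas encodes the stimulatory G protein alpha subunit and overlaps maternally and paternally expressed transcripts. In 5 of the 6 lists it held the highest cohesin fold of the 7 loci, at a pair of regions 735 bp apart, and in the BORIS SMC1 list a Grb10 region was higher, at 40.3. The first, chr2:174136184-174136828, had 50.4, 70.8 and 70.0 in empty-vector cells and 34.9, 55.5 and 47.8 in BORIS cells. The second, chr2:174137564-174138222, had 58.8, 57.1 and 63.6 against 31.2, 43.9 and 54.1. With each antibody both folds were lower in BORIS cells, but the percentiles stayed between 93.7 and 98.7 in all 6 lists. The widest region, chr2:174155006-174155948 (943 bp), had 8.86, 9.13 and 10.6 against 13.1, 8.61 and 12.2. The empty-vector-only region, chr2:174105421-174105619, had 4.83, 6.66 and 6.17. Summed pileups over the 4 regions called in all lists were 260, 289 and 329 fragments against 193, 239 and 262, ratios of 0.742 (0.613 to 0.898), 0.827 (0.694 to 0.985) and 0.796 (0.674 to 0.940), within whose intervals the values for all such regions lay.

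Kcnq1ot1 is a paternally expressed antisense RNA that silences neighbouring genes in cis. Its window was nearly bare, with 6 merged regions and none in all 6 lists. Folds ran from 3.26 to 5.78 in empty-vector cells and from 3.09 to 4.86 in BORIS cells. The widest region, chr7:150481110-150481837 (728 bp), was called in 5 lists, with 5.78 for RAD21 and 3.26 for SMC3 in empty-vector cells and 4.86, 4.53 and 4.32 for SMC1, RAD21 and SMC3 in BORIS cells. No cohesin region lay in the first 72.1 kb of the window. The density of SMC1 regions in empty-vector cells, 0.556 per 100 kb (0.0141 to 3.10), was below the 4.03 of its whole list. In the other 5 cohesin lists the density, 1.11 to 2.78 per 100 kb, was also below that of the whole list, but the interval included it.

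Mest, a paternally expressed member of the alpha/beta hydrolase family, had the fewest merged regions, though Kcnq1ot1 had fewer regions per 100 kb in empty-vector cells. Its 3 merged regions all lay within 1265 bp near the start of the window, and the remaining 105.8 kb held no region of any list. Its values depend on that edge: with the window smaller by 10% at either end it held 0 empty-vector and 0 BORIS cohesin regions. The empty-vector-only region chr6:30643320-30643725 had folds of 4.35, 3.19 and 4.08. With pileups of 20, 22 and 21 fragments, it was a weak call in each list, at percentiles of 32.0, 14.1 and 29.2.

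The regions called in all 6 lists allowed the lines to be compared by rank as well as by count. Over all 51926 such regions the median percentile in BORIS minus empty-vector cells was -1.20 points with SMC1, -0.62 with RAD21 and 0.33 with SMC3. At H19-Igf2 it was -10.6, -13.4 and -7.62 points, and 5 of 6 regions ranked lower in BORIS cells with all 3 antibodies. At Dlk1-Meg3 it was -12.2, -7.24 and -6.62 points, and 6 of 7 ranked lower with all 3. Over the genome 28.1% of such regions ranked lower with all 3 antibodies and 22.9% ranked higher. The share that ranked lower was 29.2% within 5 Mb of H19-Igf2 and 41.4% on chromosome 7, and 44.2% within 5 Mb of Dlk1-Meg3 and 45.2% on chromosome 12. Regions within 5 Mb of the H19-Igf2 window had medians of -1.17, -0.86 and 0.08 points, and those around Dlk1-Meg3 had -3.26, -3.33 and -1.10. The medians of H19-Igf2 and Dlk1-Meg3 thus lay further below 0 than those around them. Chromosome 12 as a whole had medians of -4.73, -3.54 and -2.01 points, and chromosome 7 had -3.40, -2.56 and -1.23. Regions of a locus come from the same libraries and are not replicates of a condition.

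The lists differ in length, so a difference in percentile alone shows no change. In a ranking added after the data were seen, within only the 51926 regions called in all lists, the medians at H19-Igf2 were -14.5, -20.1 and -16.6 points and those at Dlk1-Meg3 -18.4, -11.0 and -14.1. Peg3 had whole-list medians of 2.17, 3.22 and 3.69 points, with 3 of its 5 regions ranking higher with all 3 antibodies and 2 ranking lower with all 3. Its surroundings within 5 Mb had -2.33, -2.66 and -0.14, with 19.5% ranking higher and 35.0% lower with all 3. Grb10 had 2.81, 0.63 and 2.12 points, and 2 of 7 regions (28.6%) ranked higher with all 3. Its surroundings within 5 Mb had 0.85, 1.42 and 1.56, with 38.5% higher with all 3. Gnas had -0.26, 0.56 and 1.98 points, with 1 of 4 higher with all 3 and none lower, and the sign of its median over the antibodies turned when ranked by fold (-0.021). The surroundings of Gnas within 5 Mb had 0.86, 1.36 and 1.48, with 35.9% higher with all 3, so neither locus stood above its surroundings in that share. Over the 7 loci 13 of 29 regions ranked lower with all 3 antibodies and 7 ranked higher.

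**Figure D5:**
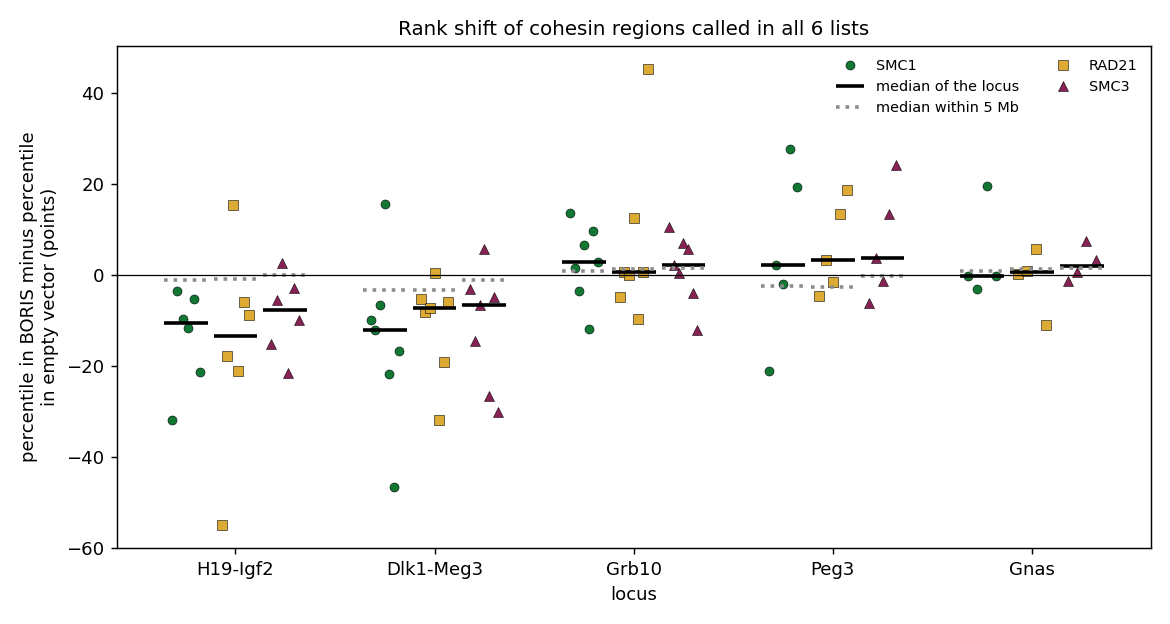
Percentile in BORIS minus percentile in empty-vector cells (vertical axis, points) for each cohesin region called in all 6 lists, by locus and antibody, with thick bars for the median of the locus and dotted bars for the median of such regions within 5 Mb. Most points of H19-Igf2 and Dlk1-Meg3 lie below 0, with medians of -10.6, -13.4 and -7.62 and of -12.2, -7.24 and -6.62, whereas Peg3 and Grb10 have medians above 0 with each antibody.

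Snf2h was called at few of these loci in CH12 cells. The wild-type list had 5 regions in the windows (0.413 per 100 kb, 0.134 to 0.964), and the mutant list 9 (0.744, 0.340 to 1.41). This order turned when the lists were cut to equal length, with 5 wild-type and 4 mutant regions. Their whole lists had 0.655 and 0.904 per 100 kb, both within the intervals. All 5 wild-type regions and 6 of the 9 mutant regions were at Grb10. Of the others 1 was at H19-Igf2 and 2 at Gnas. At Grb10 the density was 2.38 per 100 kb in wild type (0.773 to 5.56) and 2.86 in the mutant (1.05 to 6.22). These intervals lay above the whole lists but included the densities of chromosome 11, which were 1.17 and 1.59. Among the wild-type regions 3 of 5 overlapped a mutant region, where 61.2% of the whole list did. Among the mutant regions 3 of 9 overlapped a wild-type one, where 43.9% did. The intervals of these shares, 14.7 to 94.7% and 7.49 to 70.1%, included the values of the lists.

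The strongest Snf2h region at Grb10 was chr11:11854582-11854926 in mutant cells, with a fold of 4.67, a pileup of 58 fragments and a percentile of 90.5. The matching wild-type region, chr11:11854626-11854808, had a fold of 2.95, a pileup of 41 and a percentile of 63.6. At the next pair the order was the other way round, with a fold of 2.73 and a percentile of 48.6 in wild type (chr11:11855648-11856112) and 2.52 and 18.8 in the mutant (chr11:11855789-11856113). The last pair lay 114 and 171 bp from the nearest cohesin region, with 2.85 in wild type (chr11:11874473-11874787) and 2.51 in the mutant (chr11:11874544-11874730). A separate mutant region, chr11:11874816-11875149, had a fold of 3.97 and overlapped a cohesin region. The stronger of the 2 wild-type regions with no mutant partner was chr11:11848494-11848768, with a fold of 2.89, and the mutant region chr11:11786452-11786663, with 4.24, had no wild-type partner. The differences at Grb10 thus ran in both directions.

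Outside Grb10, the mutant Snf2h list had chr7:149719217-149719516 at H19-Igf2, with a fold of 2.82 and a percentile of 0.633, and this region overlapped a cohesin region. At Gnas it had chr2:174130001-174130281 with a fold of 4.45 and chr2:174154374-174154606 with 2.87. The 3 summits held 15, 16 and 21 fragments, fewer than the median of 23 over the mutant list, and wild-type cells had no region at H19-Igf2 or Gnas. Of the Snf2h regions 0 of 5 in wild type and 2 of 9 in the mutant overlapped a merged NIH3T3 cohesin region, where 34.4% of the wild-type list and 34.4% of the mutant list did. The exact intervals reached up to 52.2% in wild type and ran from 2.81 to 60.0% in the mutant, and both included those shares. By the limit of 3 counts, a count of 0 of 5 allows 60%. Kcnq1ot1, Dlk1-Meg3, Peg3 and Mest had no Snf2h region in either list.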

How the data were processed

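ChIP-seq peak lists of 8 samples were used, and the other 22 of 30 were not analysed here. The authors deposited narrowPeak files with a score, a fold (a ratio of summit pileup to background), and −log10 p and −log10 q values. MACS2, Bowtie2, SAMtools, deepTools 3.5.0 and the builds mm9 and hg19 are named in the submitters' processing notes. The settings, the control and the pairing of tools with files are not given in the sources used here. Region names in the Snf2h lists carry a tag readable as pooled replicates, which the labels do not state, so each list counted as 1 sample. Mitochondrial regions, 2 in the wild-type and 3 in the mutant list, were left out. Coordinates are counted from 1.

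Python 3.11.15, pandas 2.3.3, NumPy 2.4.6 and SciPy 1.17.1 were used. Overlap meant at least 1 bp. A merged region took the highest-ranked call of each list. Solving the Poisson formula of fold and −log10 p gave whole pileups, within 0.001 in −log10 p, for 100% of summits with a −log10 p under 300, and the solver and counts were tested on simulated data. Named per locus were the 3 regions called in all 6 lists with the highest lowest percentile, every region called with all antibodies in 1 line only, the widest region, and Snf2h regions (all where at most 6, otherwise the 3 of highest percentile called in both lines and the 3 in 1 line). Regions outside this rule are marked as chosen after their values were seen. The members, lists and rules were chosen with earlier results of these data known. Alternatives are in the closing section.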

Additional observations from a re-analysis of the deposited data

How the results depend on the processing

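Each group had 1 library and no replicate numbers to share. No paired analysis was possible because no result came from a test. Of the alternatives to the main results, 46 stayed within a tolerance, 36 moved and 2 reversed, and for the values of single loci 46 stayed within it and 17 moved. The tolerance was 1.5 times for counts, the main value's 95% interval for shares and ratios, and 1 SD over the 3 antibodies for rank differences. It is wide: within it, mutant Snf2h at cohesin went from 22.2 to 11.1% with 50% overlap, empty-vector-only regions from 6 to 9 without the SMC3 lists, and the Grb10 rank difference from 2.12 to 1.32 by fold. With a −log10 q of at least 10, the counts dropped to 99 empty-vector and 81 BORIS cohesin regions, and to 0 wild-type and 1 mutant Snf2h regions. At that threshold 73.7% of empty-vector regions overlapped a BORIS region and 91.4% the reverse, other antibodies of the line overlapped 86.9% and 84.6%, 0 Snf2h regions were shared, 0% of mutant ones lay at cohesin, and 19 merged regions were called in all lists, 2 only in empty-vector and 1 only in BORIS cells. The rank differences were then -17.9 points at H19-Igf2 and -15.1 at Dlk1-Meg3. With lists of equal length wild type had 5 Snf2h regions and the mutant 4, with 1 wild-type region shared, and 91.4% of BORIS regions overlapped an empty-vector one. Regions called only in empty-vector cells numbered 15 with at least 2 antibodies, 3 with no BORIS region within 1 kb, 10 without the SMC1 lists and 13 without the RAD21 lists. Regions called only in BORIS cells numbered 2 with at least 2 antibodies, and 1 without the SMC1, 1 without the RAD21 and 1 without the SMC3 lists. None of these counts of regions private to a line has a share over all merged regions under the same rule beside it. Minus the median of the chromosome, the rank difference was -7.24 points at H19-Igf2, -4.61 at Dlk1-Meg3 (-7.24 without this step), 0.56 at Grb10 and 5.57 at Peg3. Ranking by fold reversed that of Gnas to -0.021 points. Of the alternatives added after seeing the data, subtracting the median within 5 Mb reversed Gnas to -0.80 and gave 0.56 at Grb10 and 4.50 at Peg3. Ranking among the regions called in all 6 lists gave -16.6 at H19-Igf2, -14.1 at Dlk1-Meg3, 4.04 at Grb10, 5.98 at Peg3 and 2.04 at Gnas, and summed pileups, also added, stand in the results above. The lower values at H19-Igf2 and Dlk1-Meg3 kept their sign in these alternatives, the sign at Gnas is not settled, and the cause was not tested. The median summit held 19 to 21 fragments in the cohesin lists, so the value of a single weak region is imprecise.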
